A study of Homo sapiens with 20 samples.

Results

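The genes described here are 44 DNA replication and S phase genes in MHCC-97H, a human hepatocellular carcinoma cell line. They are named members of the replication machinery, chosen by symbol and with earlier results of these data known. All 44 were found among the 26038 gene symbols of the count table, and all 44 were measured well enough to test in every comparison, with at least 407 counts in each library. By role they are 9 origin recognition and licensing genes, 7 genes of the MCM helicase, 5 of CDC45 and the GINS complex, 6 polymerase and primase genes, 11 genes of the clamp, clamp loader, single-strand binding protein and lagging strand, 3 nucleotide supply genes and 3 G1/S drivers. Polyadenylated RNA was sequenced from 4 groups of 5 libraries. The NFS1 group was labelled as knockdown of NFS1, a cysteine desulfurase of iron-sulfur cluster assembly, made with shRNA, and the NC group as wild type. Cells of both groups were held for 15 min in a 47 °C water bath and then kept for 24 h in an incubator. R-47 and R-37 were wild-type cells of a separate experiment, held for the same 15 min at 47 °C or at 37 °C and kept for the same 24 h. The labels do not say whether the knockdown line was 1 clone, or which control hairpin NC cells carried, if any. Whether the 5 libraries within a group were grown separately is not stated either. The p-values then speak only of the spread among these samples, which may be technical.

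Replication begins when the origin recognition complex, with CDC6 and CDT1, loads the ring-shaped MCM2-7 helicase onto DNA in G1 phase. At the start of S phase, cyclin E with its kinase and the E2F transcription factors drive the change of state, CDC45 and GINS join the ring to form the active helicase, and polymerase alpha with primase lays down primers that the clamp loader RFC, the clamp PCNA and polymerases delta and epsilon extend. Many of these genes are known E2F targets whose mRNA is highest in late G1 and S phase, and proliferating liver cancer cells express them strongly.

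The libraries held 32219946 to 39689939 counts each. NFS1, the targeted gene, had 70.7, 65.2, 64.2, 64.01 and 68.3 CPM (counts scaled to a common library total) in the NFS1 libraries, against 71.5, 72.7, 71.4, 71.9 and 75.97 CPM in the NC libraries. Every NFS1 library lay below every NC library, but the log2 fold change was -0.11 (SE 0.05, edgeR adjusted p = 0.114), so the gene did not pass the threshold and the group is named here by its label. The gene averaged 92.0 CPM in R-47 and 89.6 CPM in R-37. Between the separate experiments it was lower in NC than in R-47, at -0.33 (SE 0.05, edgeR adjusted p = 1.57e-06), without overlap of libraries. Of the liver and epithelial markers, KRT8 and KRT18 were abundant and HNF4A and FOXA2 were present in all groups, while TTR was under 0.1 CPM in each. ALB averaged 0.63 CPM in NFS1, 0.85 in NC, 5.10 in R-47 and 14.1 in R-37. In the same order SERPINA1 averaged 0.58, 0.86, 2.36 and 5.82 CPM, and APOA1 0.35, 0.40, 0.58 and 0.80 CPM. A mean of 1 CPM was reached by 8 of the 12 liver markers in NFS1 and NC and by 10 in R-47 and R-37. The summed liver list of 12 genes ran at 3489 to 4217 CPM in NFS1, 4506 to 4908 CPM in NC, 6057 to 6793 CPM in R-47 and 6056 to 7382 CPM in R-37. For 8 fibroblast markers the sums were 36.9 to 58.8 CPM in NFS1, 25.1 to 30.5 CPM in NC, 18.5 to 21.99 CPM in R-47 and 18.8 to 28.1 CPM in R-37. The 6 endothelial markers summed to 51.9 to 58.3 CPM in NFS1, 56.1 to 69.98 CPM in NC, 70.01 to 79.2 CPM in R-47 and 66.3 to 78.3 CPM in R-37, with CDH5 and EMCN under 0.1 CPM in every group. The 9 leukocyte markers summed to 131 to 152 CPM in NFS1, 121 to 130.1 CPM in NC, 156 to 201 CPM in R-47 and 83.5 to 94.03 CPM in R-37, with CD3E and, in NFS1 and NC, PTPRC under 0.1 CPM. Single genes carry these sums: KRT8 and KRT18 the liver sum, LUM the fibroblast sum, PECAM1 and KDR the endothelial sum and CD68 the leukocyte sum, with 137 CPM in NFS1, 120.2 in NC, 162 in R-47 and 78.9 in R-37. Members of a list also moved apart: HNF4A was 96.3 CPM in NC and 55.3 in R-47, against the liver sum, and between the same groups PECAM1 was 17.6 and 54.8 CPM and KDR 44.1 and 19.4 CPM. The part of these lists in the results was not tested. In bulk RNA, fewer cells in S phase and less of a transcript per cell cannot be told apart.

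Levels between genes were compared per length, by the mean of the authors' FPKM over 20 libraries. MCM7 was highest with 317 FPKM, followed by MCM4 with 212, PCNA with 195 and TYMS with 118 FPKM, and RFC3 was lowest with 2.66 FPKM. The place of MCM4 differs by experiment: it was 307 FPKM in NFS1 and 339 in NC, above PCNA, and 102 in R-47 and 99.5 in R-37, below PCNA and TYMS. The median of the 44 genes was 22.8 FPKM. Within a gene, levels below are CPM scaled by TMM over all 20 libraries and listed in replicate order, and log2 fold changes come from a fit of the 2 groups compared.

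**Figure D1:**
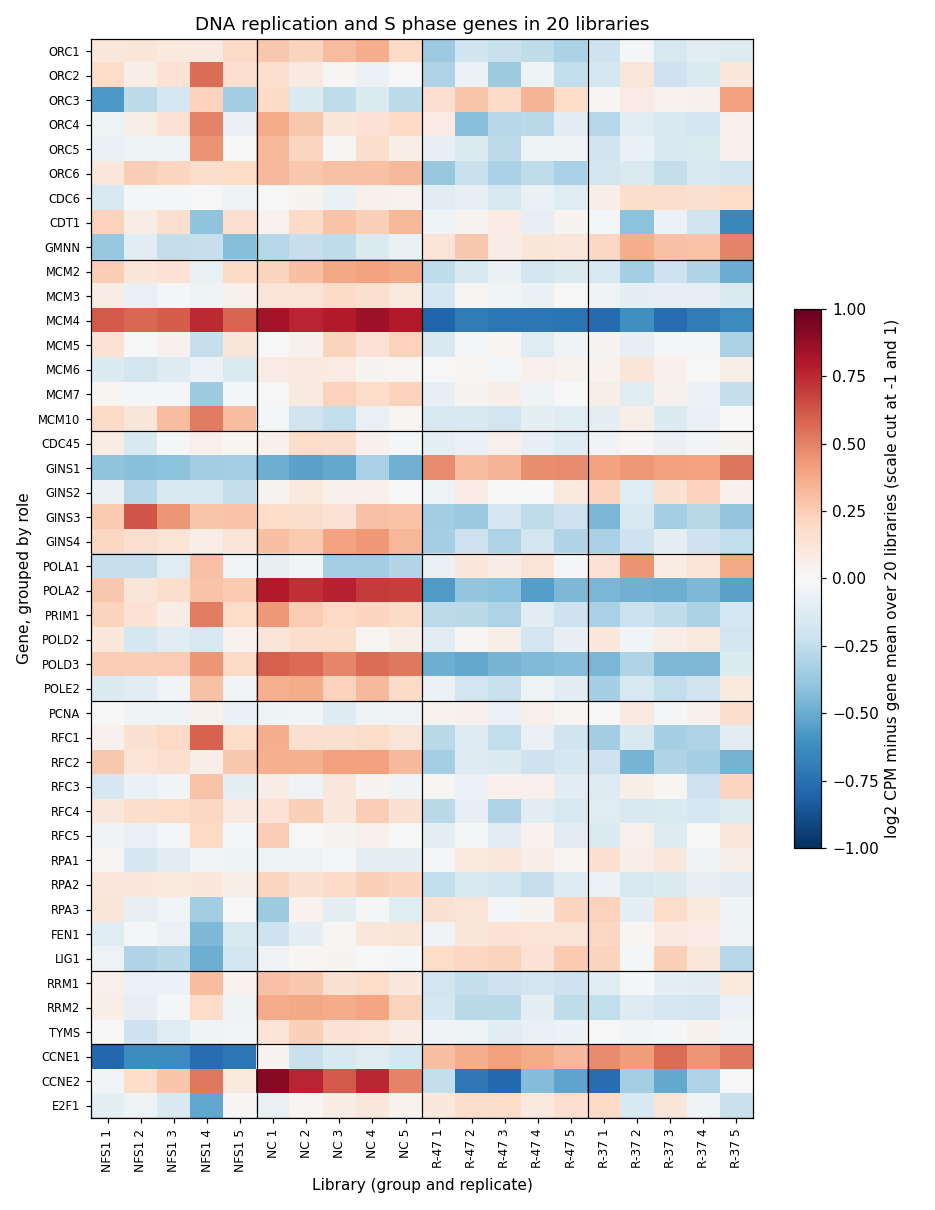
Each row is 1 of the 44 genes, ordered by role, and each column is 1 library (5 each of NFS1, NC, R-47 and R-37). Colour is log2 CPM minus the gene's mean over the 20 libraries, with the scale cut at -1 and 1. The red block of MCM4, POLA2, POLD3 and CCNE2 in NC and the blue row of CCNE1 in NFS1 stand out.

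The median of the 44 genes' log2 deviations from their own means lay between -0.03 and 0.08 in the NFS1 libraries and between 0.10 and 0.16 in the NC libraries. It was -0.11 to -0.06 in R-47 and -0.09 to -0.04 in R-37. NFS1 replicate 4 stood apart from the other NFS1 libraries in several genes in both directions: ORC2, ORC4, ORC5, RFC1 and MCM10 were highest there within the group, and CDT1, MCM7, FEN1 and LIG1 lowest. Results for NFS1 against NC are therefore also given without it. R-37 replicate 5 also stood at the edge of its group in both directions. CDT1, MCM5, MCM7, LIG1 and E2F1 were lowest there within R-37, and ORC3, GMNN, RRM1 and POLD3 highest. Without that library the calls of GMNN and RRM1 in R-47 against R-37 were lost.

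In cells labelled as NFS1 knockdown, 15 of the 44 genes were lower than in NC and 1 was higher, against a background of 12.5% of 15086 tested genes called lower and 15.7% called higher. The genes that fell include both E-type cyclins, POLA2 of polymerase alpha and RRM2 of ribonucleotide reductase, while POLA1 and RRM1 of the same enzymes were not called. CCNE1, which encodes cyclin E1, averaged 11.2 ± 0.57 CPM in NFS1 and 16.96 ± 1.2 CPM in NC (SD, n = 5 each). POLA2, the regulatory subunit of polymerase alpha, averaged 121 ± 6.1 CPM in NFS1 and 173 ± 5.1 CPM in NC. The 1 gene called higher was MCM10, a factor that helps to activate the helicase, with 76.6 ± 8.4 CPM in NFS1 and 58.1 ± 4.7 CPM in NC. Called falls ran from -0.58 to -0.16 on the log2 scale, so none reached 2-fold. The median over all 44 genes was -0.11, against 0.02 over all genes tested. In 14 genes all NFS1 libraries lay below all NC libraries and in 1 all lay above; of all genes tested, 10.5% did so in each direction. Without NFS1 replicate 4, 19 members were lower and 2 higher, with ORC4, ORC5, MCM3, RRM1 and GINS3 added and MCM10 still higher. Without NC replicate 4, 10 were lower. The count of lower genes was 23 with offsets for gene length and GC content, 8 with the replicate number as a block and 5 without NFS1 replicates 2 and 3. Calls over all genes moved too: 3093 of 13287, 1335 of 15086 and 1147 of 15357 were lower in these fits, in that order. Without NFS1 replicate 4, 2362 of 15255 were lower, and without NC replicate 4, 1532 of 15244. The main fit had 1881 of 15086 lower.

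By role, the falls in NFS1 against NC covered 4 of 7 MCM helicase genes, 2 of 5 CDC45 and GINS genes, 3 of 6 polymerase and primase genes, 2 of 11 clamp, clamp loader and lagging strand genes, 2 of 3 nucleotide supply genes and 2 of 3 G1/S drivers. None of the 9 origin recognition and licensing genes was called by edgeR at an adjusted p under 0.05. At an unadjusted p under 0.05, edgeR had ORC1 lower and ORC2 higher, while DESeq2 called ORC1 and ORC6 lower and limma-voom called 0 of the 9. Their log2 fold changes ran from -0.14 to 0.21. The difference between roles was not tested.

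Few of the genes were called after heating of wild-type cells. In R-47 against R-37, 3 of 44 genes were lower and 0 were higher, while 13.2% of 14344 tested genes were called lower and 11.9% higher. The 3 were CDC6, which loads the helicase, GMNN, which encodes geminin, the inhibitor of CDT1, and RRM1, the large subunit of ribonucleotide reductase. Their falls were 0.26, 0.19 and 0.15 on the log2 scale. The median of the 44 was -0.03, against -0.01 over all genes tested. All R-47 libraries lay below all R-37 libraries in 4 genes (CDC6, RRM1, TYMS and CCNE1), against 9.95% of all genes tested, and above them in 0, against 8.07%. CDC6 kept its call with any 1 library left out. GMNN lost its call when any of 7 of 10 libraries was left out and RRM1 with any of 6, so that CDC6 alone was lower without R-37 replicates 2 or 5 or R-47 replicates 3, 4 or 5. With library size alone as the scaling, 5 were higher (CDT1, E2F1, LIG1, MCM2 and RFC2) and 1 was lower, and with offsets for gene length and GC content 4 were higher and 8 lower. Calls over all genes moved too. Library size alone called 2977 of 14344 genes higher and 1013 lower, and the offsets called 2195 of 12992 higher and 2497 lower. At an unadjusted edgeR p under 0.05, 4 were higher and 7 lower. Other methods called higher genes too: 2 with DESeq2 (CDT1 and RFC2) and 1 with limma-voom (CDT1). Over all 14344 genes, DESeq2 called 2041 higher and limma-voom 1773. Without R-37 replicate 1, 4 were higher and 5 lower, and of all 14490 genes tested 2158 were higher and 2176 lower.

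NC and R-47 carried the same label for genotype, bath and incubation and came from separate experiments, so experiment and group cannot be told apart in their difference. Nearly every replication gene differed there, as did 79.7% of all 15080 genes tested: 29 of 44 were higher in NC, against 40.1% of all genes, and 9 were lower, against 39.6%. MCM4, CCNE2, POLA2 and POLD3 were more than 2-fold higher in NC, and GINS1 was 0.88 lower on the log2 scale. The median of the 44 was 0.21, against 0.01 over all genes tested. Libraries did not overlap in 22 of the genes that were higher and 5 that were lower, against 32.7% and 34.6% of all genes. Scaling by library size alone moved the median of all genes to 0.19 and that of the 44 to 0.39, with 34 called higher and 4 lower. Of all 15080 genes, that scaling called 7465 higher and 4740 lower.

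**Figure D2:**
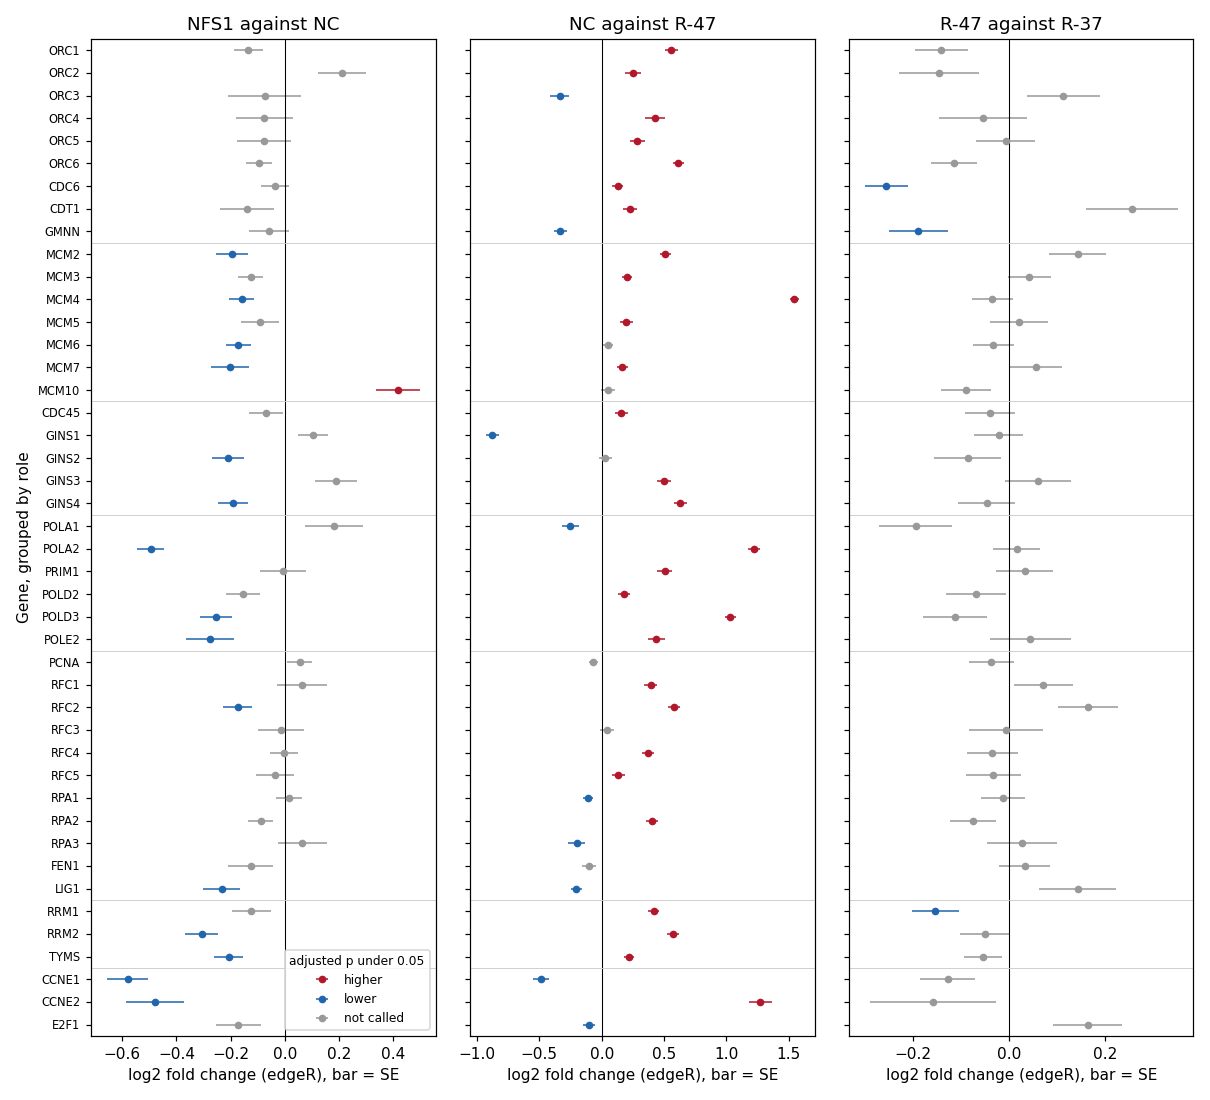
Log2 fold change of each of the 44 genes (edgeR, points) with its SE (bars) in the 3 comparisons, on separate axes. Red points were called higher, blue points lower and grey points were not called at an adjusted p of 0.05; in NFS1 against NC 15 points are blue and 1 is red, and in R-47 against R-37 3 are blue.

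Promoters are shown for the genes that moved most: MCM10 as the gene called higher in NFS1 against NC, CCNE1 and POLA2 as the largest falls there, and CDC6 as the largest fall in R-47 against R-37. Each is the 250 bases before the annotated start from RefSeq on GRCh38.p14, plus strand: MCM10 at chr10:13161308-13161557, CCNE1 at chr19:29811741-29811990, POLA2 at chr11:65261712-65261961 and CDC6 at chr17:40287629-40287878. Capitals mark matches on either strand to the E2F words TTTCCCGC, TTTCGCGC, TTTGCCGC or TTTGGCGC or to the CCAAT box CCAAT, whose reverse complement is ATTGG.
MCM10: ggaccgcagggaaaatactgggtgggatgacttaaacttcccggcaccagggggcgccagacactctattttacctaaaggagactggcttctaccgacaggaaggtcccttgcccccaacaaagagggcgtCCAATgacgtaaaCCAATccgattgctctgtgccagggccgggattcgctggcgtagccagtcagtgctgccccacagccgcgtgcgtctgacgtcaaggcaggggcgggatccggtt
CCNE1: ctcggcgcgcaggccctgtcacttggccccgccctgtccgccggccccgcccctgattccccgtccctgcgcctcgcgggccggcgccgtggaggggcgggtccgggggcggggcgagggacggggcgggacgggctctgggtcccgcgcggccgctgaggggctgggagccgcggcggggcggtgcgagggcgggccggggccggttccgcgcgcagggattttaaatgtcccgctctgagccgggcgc
POLA2: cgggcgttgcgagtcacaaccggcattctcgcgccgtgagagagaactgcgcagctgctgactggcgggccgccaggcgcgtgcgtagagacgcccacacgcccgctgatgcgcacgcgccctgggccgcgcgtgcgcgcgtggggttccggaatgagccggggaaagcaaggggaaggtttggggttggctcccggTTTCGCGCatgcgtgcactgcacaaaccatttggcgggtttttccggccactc
CDC6: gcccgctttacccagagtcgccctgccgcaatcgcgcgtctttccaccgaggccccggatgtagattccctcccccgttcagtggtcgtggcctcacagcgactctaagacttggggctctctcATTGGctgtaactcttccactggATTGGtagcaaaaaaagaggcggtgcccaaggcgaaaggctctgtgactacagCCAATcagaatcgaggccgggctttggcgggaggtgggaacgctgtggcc

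MCM10 had CCAAT words at 118 and 105 bases before its start, POLA2 an E2F word at 53 bases before, and CDC6 CCAAT words at 126, 103 and 50 bases before. CCNE1 had no match in the 250 bases shown. RefSeq promoters of 300 bases, reaching 50 bases past the start, were found for 37 of the 44 genes; MCM4, MCM5, GINS4, POLD3, RPA2, RPA3 and CCNE2 were not matched. An E2F word lay in 18 of the 37 promoters (48.6%), against 3.33% of all 27305 promoters, and CDC6 was among them with a word 8 bases past its start. The CCAAT box lay in 22 of the 37 (59.5%), against 35.7% of all. The CHR words TTTGAA or TTCGAA, which are known from mitotic gene promoters, lay in 2 of the 37 (5.41%), against 16.6% of all. Of the 15 genes lower in NFS1 against NC, 11 had a promoter and 8 of those held an E2F word, and of the 28 genes not called 25 had one and 10 of those held the word. A match is a description of the letters and not of binding.

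Cyclin E and E2F1 stand at the entry to S phase. CCNE1 (GRCh38.p14 chr19:29811991-29824312) had 10.6, 11.8, 11.7, 10.7 and 11.1 CPM in NFS1 libraries, against 18.9, 15.8, 16.6, 17.01 and 16.4 CPM in NC libraries. It had 23.03, 24.1, 24.9, 24.2 and 23.4 CPM in R-47 libraries, against 26.03, 25.01, 27.6, 25.4 and 26.98 CPM in R-37 libraries. No library of any group overlapped with one of another, and the order was the same throughout: NFS1 lowest, then NC, R-47 and R-37. The fall in NFS1 against NC was -0.58 on the log2 scale (SE 0.08, edgeR adjusted p = 7.73e-05), the largest in size among the 44. In R-47 against R-37 the difference was -0.13 and was not called (SE 0.06, edgeR adjusted p = 0.114), and in NC against R-47 it was -0.49 (SE 0.06, edgeR adjusted p = 4.31e-07).

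CCNE2 (chr8:94880224-94896693), the gene of cyclin E2, had 22.3, 25.99, 27.8, 33.2 and 24.5 CPM in NFS1 libraries, against 43.5, 39.1, 35.2, 38.9 and 32.4 CPM in NC libraries. It had 19.3, 13.7, 13.1, 16.8 and 15.7 CPM in R-47 libraries, against 13.3, 17.9, 15.9, 18.3 and 22.8 CPM in R-37 libraries. The highest NFS1 library, replicate 4, just passed the lowest NC library, and the other experiment lay lower, with R-37 replicate 5 just above the lowest NFS1 library. CCNE2 fell by 0.48 in NFS1 against NC (SE 0.11, edgeR adjusted p = 0.00441) and was higher by 1.27 in NC than in R-47 (SE 0.09, edgeR adjusted p = 3.59e-11), where CCNE1 was lower. Its annotated span shares 1523 bases with INTS8, which had 109.6 CPM on average against 24.5 for CCNE2. It also shares 895 bases with NDUFAF6, which had 31.8 CPM, so counts made without regard to strand could mix these genes. The log2 fold change of INTS8 was 0.0023 in NFS1 against NC and 0.21 in NC against R-47, and that of NDUFAF6 was 0.04 and -0.18.

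E2F1, the activating transcription factor of this program, had 81.8, 84.9, 78.8, 61.2 and 88.4 CPM in NFS1 libraries, against 83.4, 89.2, 92.7, 95.1 and 90.2 CPM in NC libraries. Its R-47 libraries held 94.5, 99.1, 99.7, 94.2 and 98.7 CPM, against 101, 79.1, 95.7, 84.7 and 75.2 CPM in R-37 libraries. The groups overlapped in both pairs. No call was made in NFS1 against NC, at -0.17 (SE 0.08, edgeR adjusted p = 0.138), or in R-47 against R-37, at 0.16 (SE 0.07, edgeR adjusted p = 0.104). NC lay below R-47 by a log2 fold change of -0.10 with TMM scaling (SE 0.05, edgeR adjusted p = 0.0431), a call lost without NC replicate 1, 2 or 5 or R-47 replicate 2, 3 or 5 (edgeR adjusted p up to 0.0968), and the value became 0.078 with library size alone.

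**Figure D3:**
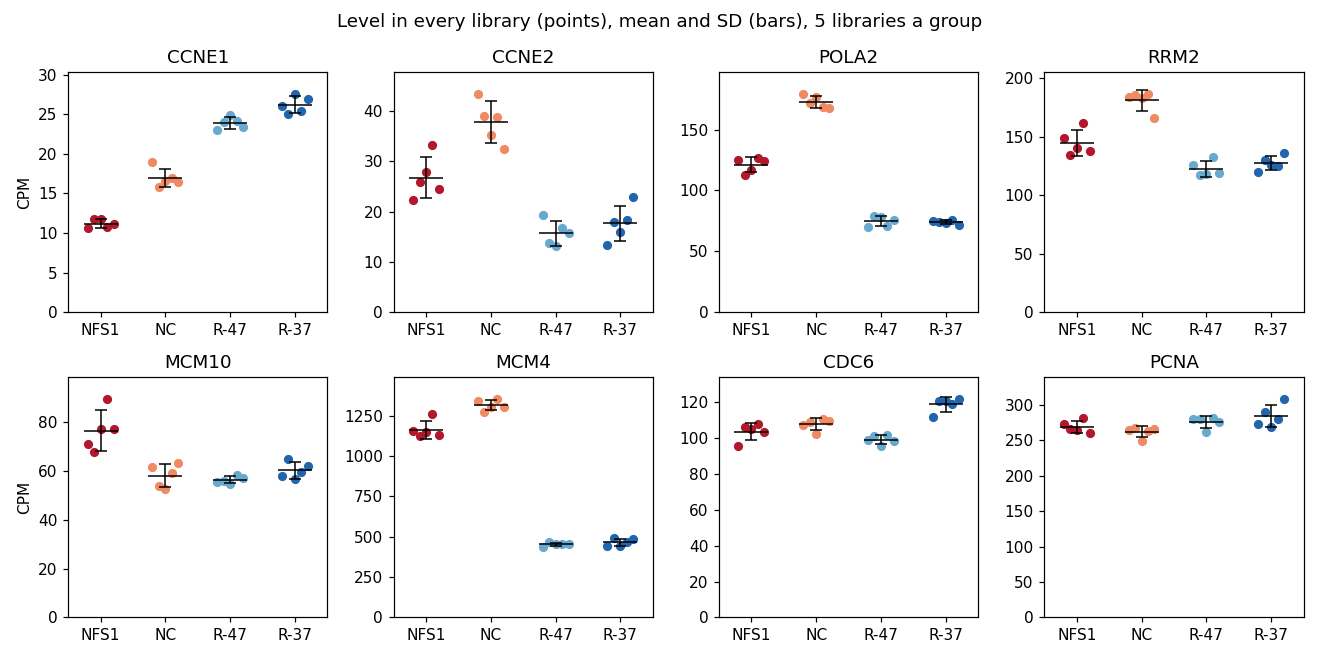
Level in CPM of CCNE1, CCNE2, POLA2, RRM2, MCM10, MCM4, CDC6 and PCNA in every library (points), with the mean and SD of the 5 libraries of each group (black bars), in the order NFS1, NC, R-47 and R-37. CCNE1 falls stepwise to the left, MCM4 and POLA2 are high in both NFS1 and NC, and PCNA lies between 249 and 309 CPM in all 20 libraries.

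Among the licensing genes, CDC6 (chr17:40287879-40304657) had 98.8, 101, 95.7, 102 and 98.1 CPM in R-47 libraries, against 112, 121, 121, 119 and 122 CPM in R-37 libraries, with all heated libraries below all unheated ones. Its fall of 0.26 (SE 0.04, edgeR adjusted p = 0.00073) was called in all 10 fits that left out 1 library. In the second experiment CDC6 had 95.7, 106, 105, 108 and 104 CPM in NFS1 libraries, against 107, 109, 102, 110.4 and 109.7 CPM in NC libraries. Those groups overlapped, and the log2 difference was -0.04 (SE 0.05, edgeR adjusted p = 0.629). NC was 0.13 higher than R-47 (SE 0.04, edgeR adjusted p = 0.00899).

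CDT1, the partner of CDC6 in loading the helicase, had 81.03, 72.7, 77.04, 52.2 and 77.7 CPM in NFS1 libraries, against 70.7, 78.9, 84.2, 81.7 and 86.9 CPM in NC libraries. It had 66.9, 70.2, 73.1, 65.4 and 70.5 CPM in R-47 libraries, against 68.6, 51.8, 66.3, 60.1 and 44.1 CPM in R-37 libraries. NFS1 replicate 4 lay well below the other NFS1 libraries, and R-37 replicates 2 and 5 lay below the rest of their group. The log2 fold changes were -0.14 in NFS1 against NC (SE 0.10, edgeR adjusted p = 0.316) and 0.26 in R-47 against R-37 (SE 0.10, edgeR adjusted p = 0.0614), neither called. Without R-37 replicate 1 or 3 the value in R-47 against R-37 was called (edgeR adjusted p = 0.0105 and 0.029). CDT1 was 0.22 higher in NC than in R-47 (SE 0.05, edgeR adjusted p = 0.000781).

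GMNN had 52.6, 58.01, 50.7, 52.5 and 52.02 CPM in R-47 libraries, against 55.7, 62.04, 59.1, 58.9 and 68.1 CPM in R-37 libraries. R-47 replicate 2 overlapped with the unheated group. Its fall was 0.19 (SE 0.06, edgeR adjusted p = 0.0331), with an adjusted p of up to 0.0828 when 1 library was left out. GMNN had 36.9, 44.7, 40.8, 40.97 and 35.8 CPM in NFS1 libraries, against 39.4, 40.97, 40.3, 43.6 and 45.9 CPM in NC libraries. Those groups overlapped, with a log2 difference of -0.06 (SE 0.07, edgeR adjusted p = 0.588), and NC lay below R-47 by a log2 fold change of -0.33 (SE 0.05, edgeR adjusted p = 1.10e-05).

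The 6 subunits of the origin recognition complex, which marks origins, differed little within either experiment. No ORC gene was called by edgeR in NFS1 against NC (DESeq2 called ORC1 and ORC6 lower there, limma-voom 0), where log2 fold changes ran from -0.14 for ORC1 to 0.21 for ORC2, or in R-47 against R-37, where they ran from -0.15 for ORC2 to 0.11 for ORC3. At an unadjusted edgeR p under 0.05, ORC1 and ORC6 were lower in R-47 against R-37, where DESeq2 and limma-voom called 0. Without NFS1 replicate 4, ORC4 and ORC5 were called lower in NFS1 against NC (edgeR adjusted p = 0.0451 and 0.0192). Between the experiments, in NC against R-47, ORC1, ORC2, ORC4, ORC5 and ORC6 were higher, by 0.25 to 0.61, and ORC3 was lower by a log2 fold change of -0.34. ORC1, ORC3 and ORC4 overlap other expressed genes, so their counts are uncertain.

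Of the MCM2-7 ring, 4 subunits were lower in NFS1 against NC and none was called by edgeR in R-47 against R-37 (MCM2 was closest, at an adjusted p of 0.0887, and was the 1 gene at an unadjusted p under 0.05; DESeq2 and limma-voom called none of the 6 either). MCM4 (chr8:47960941-47978160) had 1154, 1125, 1148, 1261 and 1130 CPM in NFS1 libraries, against 1342, 1276, 1304, 1354 and 1303 CPM in NC libraries. It had 435, 464, 456, 455 and 454 CPM in R-47 libraries, against 443, 493, 444, 465 and 483 CPM in R-37 libraries. Both groups of the knockdown experiment lay far above both groups of the heating experiment, and NFS1 lay below NC without overlap. MCM4 fell by 0.16 in NFS1 against NC (SE 0.05, edgeR adjusted p = 0.019), was 1.55 higher in NC than in R-47 (SE 0.04, edgeR adjusted p = 1.02e-19), and had a log2 difference of -0.03 in R-47 against R-37 (SE 0.04, edgeR adjusted p = 0.578). Without NFS1 replicate 5 the first of these was not called, at an edgeR adjusted p of 0.0512.

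MCM2 had 354, 325, 331, 284 and 342 CPM in NFS1 libraries, against 349.6, 369.6, 392, 395 and 389 CPM in NC libraries. It had 251, 269, 285, 263 and 270.1 CPM in R-47 libraries, against 268, 236, 259, 242 and 211 CPM in R-37 libraries. In each pair the groups overlapped, and NFS1 replicate 4 and R-37 replicate 5 were the lowest of their groups. MCM2 fell by 0.19 in NFS1 against NC (SE 0.06, edgeR adjusted p = 0.0246), and the call was lost without NC replicate 4 or 5 (edgeR adjusted p = 0.062 and 0.058). MCM6 and MCM7 fell by 0.17 and 0.20, and MCM7 lost its call in 6 of 10 fits that left out 1 library, with an edgeR adjusted p of up to 0.1. MCM3 and MCM5 had log2 fold changes of -0.13 and -0.09 and were not called (edgeR adjusted p = 0.0508 and 0.356), though DESeq2 and limma-voom called MCM3 lower (adjusted p = 0.00811 and 0.0431). Relative to R-47, NC was higher in MCM2, MCM3, MCM5 and MCM7 by 0.51, 0.20, 0.20 and 0.16, and MCM6 had 0.05 (SE 0.04, edgeR adjusted p = 0.258).

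The subunits join the ring in equal numbers, while their mRNA levels per length did not lie together. MCM4 had 307 ± 13.4 FPKM in NFS1, 339 ± 10.1 in NC, 102 ± 2.6 in R-47 and 99.5 ± 5.3 in R-37 (SD, n = 5 each). MCM7 had 329.9 ± 34.8 FPKM in NFS1, 375 ± 28.3 in NC, 295 ± 10.7 in R-47 and 269.5 ± 21.04 in R-37. MCM6 was the lowest of the 6 in each group, with 39.3 ± 1 FPKM in NFS1, 43.8 ± 0.65 in NC, 37.4 ± 0.91 in R-47 and 36.3 ± 1.3 in R-37. FPKM is scaled by library total and not by TMM, so these values compare genes within a group. Between groups they can differ from the fits. The fits gave 0.05 for MCM6 in NC against R-47, not called, and -0.03 for MCM4 in R-47 against R-37. The highest mean was 8.39 times the lowest in NFS1, 8.56 times in NC, 7.89 times in R-47 and 7.43 times in R-37. MCM4 was near MCM7 in NFS1 and NC and near MCM3 in R-47 and R-37.

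**Figure D4:**
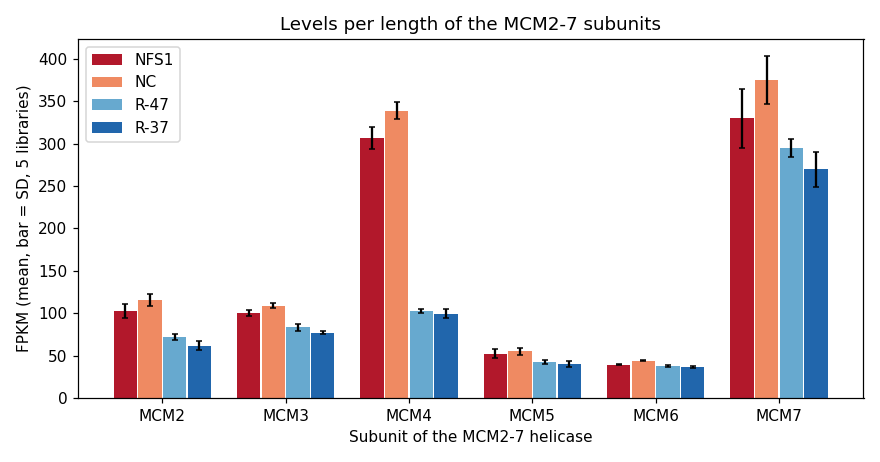
Mean FPKM (scaled by library total, not by TMM) of the 6 subunits of the MCM2-7 ring in NFS1, NC, R-47 and R-37 (bars, from 0), with the SD over 5 libraries. MCM4 is about as high as MCM7 in NFS1 and NC and is much lower in R-47 and R-37.

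MCM10 (chr10:13161558-13211110), which binds the loaded helicase, was the 1 gene called higher in NFS1 against NC, where 9 of the 44 had a log2 fold change above 0. It had 71.003, 67.8, 77.4, 89.6 and 77.4 CPM in NFS1 libraries, against 61.6, 54.1, 52.5, 59.3 and 63.1 CPM in NC libraries. It had 55.6, 56.1, 54.9, 58.5 and 57.3 CPM in R-47 libraries, against 58.2, 65.2, 56.6, 59.5 and 62.02 CPM in R-37 libraries. All NFS1 libraries lay above all NC libraries, with replicate 4 the highest, and the R-47 and R-37 libraries overlapped. The rise was 0.42 (SE 0.08, edgeR adjusted p = 0.00151), and it was called in each of the 10 fits that left out 1 library. The difference was 0.05 in NC against R-47 (SE 0.05, edgeR adjusted p = 0.422) and -0.09 in R-47 against R-37 (SE 0.05, edgeR adjusted p = 0.222), neither called. Most genes of chromosome 10, where it lies, were also higher in NFS1 than in NC, and most were lower in NC than in R-47, as given with the neighbours.

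CDC45 joins the ring with GINS to make the active helicase. CDC45 had 52.97, 45.3, 49.6, 52.02 and 51.1 CPM in NFS1 libraries, against 51.7, 57.04, 56.7, 51.8 and 49.6 CPM in NC libraries. It had 47.1, 47.98, 52.1, 47.5 and 45.9 CPM in R-47 libraries, against 48.98, 50.7, 48.1, 49.2 and 51.3 CPM in R-37 libraries. Both pairs overlapped. It was not called in NFS1 against NC, at -0.07 (SE 0.06, edgeR adjusted p = 0.428), or in R-47 against R-37, at -0.04 (SE 0.05, edgeR adjusted p = 0.601), and was 0.16 higher in NC than in R-47 (SE 0.05, edgeR adjusted p = 0.0112).

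The 4 GINS genes did not move together. GINS1 had 58.7, 58.3, 58.6, 61.2 and 61.5 CPM in NFS1 libraries, against 55.3, 53.7, 54.6, 62.1 and 55.6 CPM in NC libraries. It had 108, 96.9, 98.9, 108 and 108 CPM in R-47 libraries, against 103, 106, 104, 103 and 113 CPM in R-37 libraries. All libraries of the knockdown experiment lay below all of the heating experiment. GINS1 had log2 fold changes of 0.10 in NFS1 against NC (SE 0.05, edgeR adjusted p = 0.176), not called, and -0.88 in NC against R-47 (SE 0.05, edgeR adjusted p = 8.13e-13), the largest fall of the 44 there.

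GINS4 had 54.3, 52.6, 51.8, 49.4 and 51.6 CPM in NFS1 libraries, against 57.9, 56.6, 62.5, 63.8 and 59.4 CPM in NC libraries. It had 37.2, 40.6, 37.9, 41.3 and 38.1 CPM in R-47 libraries, against 37.4, 40.6, 43.99, 40.6 and 39.5 CPM in R-37 libraries. NFS1 lay below NC without overlap, and NC above R-47 without overlap. GINS4 fell by 0.19 in NFS1 against NC (SE 0.05, edgeR adjusted p = 0.017), a call lost without NC replicate 4 (edgeR adjusted p = 0.0511), and was 0.63 higher in NC than in R-47 (SE 0.05, edgeR adjusted p = 2.85e-10). GINS2 fell by 0.21 in NFS1 against NC (SE 0.06, edgeR adjusted p = 0.0161). GINS3 had 0.19 there (SE 0.08, edgeR adjusted p = 0.085) and was called higher only without NFS1 replicate 4 (edgeR adjusted p = 0.0316). In R-47 against R-37 the 4 had log2 fold changes of -0.09 to 0.06, with no call.

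In polymerase alpha, which starts each new strand, the regulatory and catalytic subunits differed. POLA2 (chr11:65261962-65305985) had 125, 112, 117, 127 and 124 CPM in NFS1 libraries, against 179.5, 172, 177, 168 and 168 CPM in NC libraries. It had 69.8, 78.7, 78.02, 70.7 and 75.6 CPM in R-47 libraries, against 75.2, 74.03, 73.7, 75.9 and 71.2 CPM in R-37 libraries. NFS1 lay between NC above and the other experiment below, with no overlap. POLA2 fell by 0.50 in NFS1 against NC (SE 0.05, edgeR adjusted p = 1.04e-05) and was 1.22 higher in NC than in R-47 (SE 0.05, edgeR adjusted p = 3.32e-16), while R-47 against R-37 gave 0.02 (SE 0.05, edgeR adjusted p = 0.845).

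POLA1, the catalytic subunit, had 31.01, 31.02, 33.6, 44.97 and 35.9 CPM in NFS1 libraries, against 34.4, 35.9, 28.8, 28.7 and 29.8 CPM in NC libraries. It had 34.9, 39.3, 38.6, 39.9 and 36.003 CPM in R-47 libraries, against 40.5, 49.96, 38.5, 40.1 and 47.7 CPM in R-37 libraries. The highest library in the first pair was NFS1 replicate 4, and both pairs overlapped. POLA1 was not called in NFS1 against NC, at 0.18 (SE 0.11, edgeR adjusted p = 0.226), or in R-47 against R-37, at -0.19 (SE 0.08, edgeR adjusted p = 0.0709). Without R-37 replicate 1 or 3 the second value was called lower (edgeR adjusted p = 0.048 and 0.038). POLA1 was lower in NC than in R-47, by a log2 fold change of -0.25 (SE 0.07, edgeR adjusted p = 0.00173). That difference was called in 17 of 19 alternative fits, with values from -0.30 to -0.014. PRIM1, the catalytic subunit of primase, had -0.0067 in NFS1 against NC (SE 0.08, edgeR adjusted p = 0.962).

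Of the accessory subunits of the other replicative polymerases, POLD3 and POLE2 were called and POLD2 was not. POLD3, of polymerase delta, had 69.9, 69.9, 70.5, 80.4 and 67.4 CPM in NFS1 libraries, against 89.5, 87.7, 83.1, 86.9 and 85.4 CPM in NC libraries. It had 41.9, 41.1, 42.6, 43.2 and 43.8 CPM in R-47 libraries, against 42.8, 47.9, 43.1, 43.02 and 53.7 CPM in R-37 libraries. NFS1 lay below NC without overlap, even though replicate 4 was far above the other NFS1 libraries. POLD3 fell by 0.25 (SE 0.06, edgeR adjusted p = 0.00537) and was 1.03 higher in NC than in R-47 (SE 0.05, edgeR adjusted p = 4.52e-15). POLE2, of polymerase epsilon, had 14.8, 15.1, 15.99, 20.03 and 15.97 CPM in NFS1 libraries, against 20.9, 21.2, 19.2, 20.5 and 18.7 CPM in NC libraries. It had 15.6, 14.3, 13.9, 15.8 and 15.03 CPM in R-47 libraries, against 12.8, 14.5, 13.6, 14.1 and 17.5 CPM in R-37 libraries. Only NFS1 replicate 4 overlapped with NC. Its fall of 0.28 (SE 0.09, edgeR adjusted p = 0.0321) lost its call in 7 of 10 fits that left out 1 library (edgeR adjusted p up to 0.0679); without NFS1 replicate 4 the adjusted p was 0.000543. POLD2 had -0.16 in NFS1 against NC (SE 0.06, edgeR adjusted p = 0.0763) and was called lower without NFS1 replicate 1 (edgeR adjusted p = 0.0222) and by DESeq2 (adjusted p = 0.0486).

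PCNA, the sliding clamp that serves as a common marker of S phase, had 273, 266, 264, 281 and 260.3 CPM in NFS1 libraries, against 264, 268, 249, 264 and 266 CPM in NC libraries. It had 279.7, 281, 262, 282 and 276 CPM in R-47 libraries, against 274, 290.1, 269, 280.2 and 309 CPM in R-37 libraries. Both pairs overlapped. The log2 fold change was 0.06 in NFS1 against NC (SE 0.05, edgeR adjusted p = 0.4; estimate ± 1.96 SE, -0.03 to 0.14) and -0.04 in R-47 against R-37 (SE 0.05, edgeR adjusted p = 0.588; -0.13 to 0.05). For NC against R-47 it was -0.07 (SE 0.04, edgeR adjusted p = 0.111), called lower without R-47 replicate 3 (edgeR adjusted p = 0.032) and 0.11 with library size alone.

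The other 10 genes of this role held 2 of the 15 falls in NFS1 against NC. LIG1, the ligase that seals lagging strand fragments, fell by 0.23 (SE 0.07, edgeR adjusted p = 0.0199), and RFC2, a subunit of the clamp loader, by 0.17 (SE 0.05, edgeR adjusted p = 0.025). RFC2 lost its call without NC replicate 4 or NFS1 replicate 3 (edgeR adjusted p = 0.062 and 0.058). The remaining 4 RFC subunits had -0.04 to 0.06, the 3 subunits of RPA, which coats single-stranded DNA, -0.09 to 0.06, and FEN1, which trims flaps, -0.13. RFC1, RFC2, RFC4, RFC5 and RPA2 were higher in NC than in R-47, by 0.13 to 0.58. RFC5 lost its call without NC replicate 1 or R-47 replicate 1, 3 or 5 (edgeR adjusted p up to 0.0816). In that comparison LIG1 and RPA3 were lower, by log2 fold changes of -0.20 and -0.20, and so was RPA1 with TMM scaling at -0.11, which became 0.071 with library size alone and 0.057 with length and GC offsets and lost its call without NC replicate 5 (edgeR adjusted p = 0.0509). LIG1 and RPA3 were each called in 18 of 19 alternative fits, and their values came as near to no difference as -0.023 and -0.019.

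For nucleotide supply, RRM2 (chr2:10122568-10211010), the small subunit of ribonucleotide reductase that limits its activity in S phase, had 149, 134, 140.1, 161 and 138 CPM in NFS1 libraries, against 184, 185, 183, 187 and 165 CPM in NC libraries. It had 126, 117, 118, 133 and 119 CPM in R-47 libraries, against 119.9, 129.9, 126, 125 and 136 CPM in R-37 libraries. NFS1 lay below NC without overlap, and R-47 and R-37 overlapped. RRM2 fell by 0.31 in NFS1 against NC (SE 0.06, edgeR adjusted p = 0.00187), and was 0.57 higher in NC than in R-47 (SE 0.05, edgeR adjusted p = 2.72e-10).

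RRM1 had 255, 236, 237, 304 and 252 CPM in NFS1 libraries, against 302, 296, 274, 280.2 and 265 CPM in NC libraries. It had 217, 208, 213, 216 and 214 CPM in R-47 libraries, against 226, 243, 232, 227 and 264 CPM in R-37 libraries. NFS1 replicate 4 was the one high NFS1 library, and all R-47 libraries lay below all R-37 libraries. RRM1 fell by 0.15 in R-47 against R-37 (SE 0.05, edgeR adjusted p = 0.0288), with an adjusted p of up to 0.0755 when 1 library was left out. In NFS1 against NC it had -0.12 (SE 0.07, edgeR adjusted p = 0.217), and 0.00508 was the edgeR adjusted p without NFS1 replicate 4. NC was 0.41 higher than R-47 (SE 0.04, edgeR adjusted p = 7.12e-09).

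TYMS, which makes thymidylate, had 211, 183, 194, 205 and 207 CPM in NFS1 libraries, against 232, 249, 233, 232 and 222 CPM in NC libraries. It had 206, 205, 196, 201 and 202 CPM in R-47 libraries, against 212, 207, 209, 217 and 207 CPM in R-37 libraries. Each pair was separated without overlap, NFS1 below NC and R-47 below R-37. The fall was 0.21 in NFS1 against NC (SE 0.05, edgeR adjusted p = 0.0095), -0.05 in R-47 against R-37 was not called (SE 0.04, edgeR adjusted p = 0.328), and NC was 0.22 higher than R-47 (SE 0.04, edgeR adjusted p = 3.68e-05). ENOSF1, which overlaps the end of TYMS, had -0.20 in NFS1 against NC and 53.8 CPM on average against 212 for TYMS, so the split of reads between the 2 is uncertain.

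edgeR called no gene of the 44 in both NFS1 against NC and R-47 against R-37, which share no library, and neither did limma-voom. It called 15 lower and 1 higher in the first and 3 lower in the second. With so few calls in the second, the lack of a shared gene says little. The share of all tested genes called in both is not given here, and whether the calls fall on separate genes was not tested. DESeq2 called RFC2 in both comparisons, lower in NFS1 and higher in R-47, and 4 genes (CCNE1, MCM2, ORC1 and RFC2) had an unadjusted edgeR p under 0.05 in both. The NC libraries also enter NC against R-47, so its values are only set beside those of NFS1 against NC, which come first here: 0.42 and 0.05 for MCM10, -0.16 and 1.55 for MCM4, -0.50 and 1.22 for POLA2, and -0.58 and -0.49 for CCNE1.

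The genes lie on 19 chromosomes, and their neighbours were read after the values were seen. For each gene the median log2 fold change of tested genes within 5 Mb was taken. MCM10 had 0.42 in NFS1 against NC and its 33 neighbours had a median of 0.42, with 25 of them called higher and 1 lower. Over the whole of chromosome 10, where MCM10 lies, 66.4% of 565 tested genes were called higher in NFS1 against NC and 1.95% lower, with a median log2 fold change of 0.48. On chromosome 11, which carries POLA2 and POLD3, 30.1% of 814 tested genes were called lower, and on chromosome 14, which carries POLE2, 33.0% of 494. Chromosome 11 also carries FEN1 (-0.13) and RRM1 (-0.12), which were not called and had neighbours' medians of -0.15 and -0.05. On chromosome X 37.8% of 466 were called lower, while its member POLA1 (0.18, not called) had a neighbours' median of 0.09. For POLA2 (-0.50) the neighbours' median was -0.19, for POLD3 (-0.25) -0.18 and for POLE2 (-0.28) -0.20. For CCNE1 (-0.58), CCNE2 (-0.48) and RRM2 (-0.31) the neighbours' medians were -0.08, 0.05 and 0.04. MCM4 (-0.16) lay among 13 neighbours of median 0.28. For NC against R-47, MCM4 (1.55) and CCNE2 (1.27) stood among neighbours of median 0.19 and -0.15, and POLD3 (1.03) among neighbours of median 0.61. There MCM10 (0.05) stood among neighbours of median -0.51, and POLE2 (0.44) among neighbours of median 0.56. Over chromosome 10, 58.2% of 570 tested genes were lower in NC than in R-47 and 26.5% higher, with a median of -0.46. Of all genes, 39.6% were lower and 40.1% higher. On chromosome 14, 72.6% of 493 were higher and 15.6% lower, and on chromosome 11, 46.5% of 819 were higher and 36.9% lower. Across the 44 genes, Pearson's r between a gene and its neighbours' median was 0.50 for NFS1 against NC (Spearman's rho 0.37), 0.42 in NC against R-47 (rho 0.40) and 0.13 in R-47 against R-37 (rho 0.09). These are descriptions over genes that share libraries, and some windows share neighbours. The part of the region in each gene's difference was not tested.

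**Figure D5:**
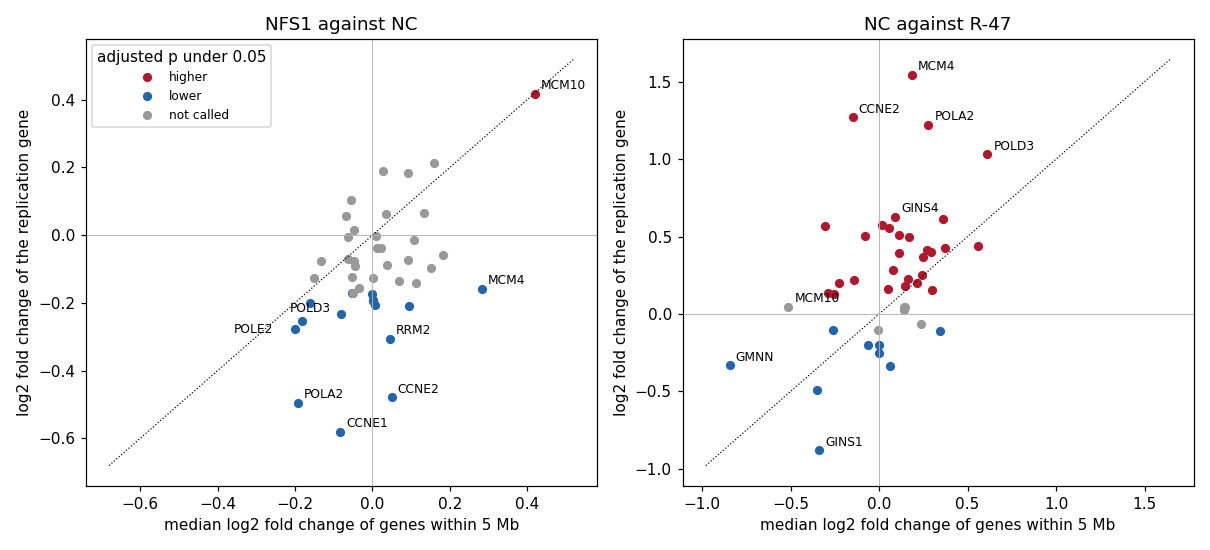
Log2 fold change of each replication gene (vertical) against the median log2 fold change of tested genes within 5 Mb (horizontal), for NFS1 against NC (left) and NC against R-47 (right), coloured by call; the dotted line marks equal values. MCM10 lies on the line in NFS1 against NC at 0.42, and CCNE1, CCNE2 and RRM2 lie far below it.

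Other genes of the same processes were read from lists chosen by function, beside 12.5% of all genes called lower and 15.7% higher in NFS1 against NC. Of 33 other replication fork genes tested, 12 were lower (36.4%) and 2 higher, with a median of -0.11; RNASEH2C, a subunit of ribonuclease H2, had -0.56 (SE 0.08, edgeR adjusted p = 0.000226) and MCMBP, which binds MCM proteins, 0.61 (SE 0.06, edgeR adjusted p = 4.55e-06). Of 30 other nucleotide supply genes 6 were lower and 1 higher, with MTHFD1, an enzyme of folate metabolism, at -0.30 (SE 0.06, edgeR adjusted p = 0.00124) and CTPS2, a CTP synthase, at 0.30 (SE 0.08, edgeR adjusted p = 0.00948). Of 29 G1/S control genes 2 were lower and 2 higher, the higher being TFDP2, a partner of E2F proteins, at 0.60 (SE 0.08, edgeR adjusted p = 0.000132) and MYC at 0.32 (SE 0.06, edgeR adjusted p = 0.00201). The checkpoint list of 13 had 2 lower, RAD9A at -0.43 (SE 0.08, edgeR adjusted p = 0.000812) and RHNO1 at -0.30 (SE 0.06, edgeR adjusted p = 0.00157), and 1 higher. The mitosis list of 34 had 0 lower and 5 higher (14.7%, near the share of all genes), among them the spindle motor KIF11 at 0.64 (SE 0.11, edgeR adjusted p = 0.000765) and the spindle checkpoint gene BUB3 at 0.57 (SE 0.05, edgeR adjusted p = 3.36e-06), with a median of 0.02; 1 was lower at an unadjusted edgeR p under 0.05 and 0 with DESeq2 or limma-voom. Chromosome 10 carries 6 of the 12 genes called higher over these lists and the 44 (MCM10, MCMBP, KIF11, BUB3, MKI67 and CDK1) and 0 of the 37 called lower. Over all genes tested, chromosome 10 held 375 of the 2364 called higher and 11 of the 1881 called lower. Of those called lower, POLA2, POLD3, RNASEH2C, POLD4 and RAD9A lie on chromosome 11, and POLE2, MTHFD1 and LRR1 on chromosome 14. Of the 1881 lower over all genes, 245 lie on chromosome 11 and 163 on chromosome 14. WEE1, called higher, also lies on chromosome 11. The part of the region in these calls was not tested.

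In R-47 against R-37, where 13.2% of all genes were called lower and 11.9% higher, 2 of the 33 fork genes were lower and 1 higher. The 2 largest changes were POLD4, a small subunit of polymerase delta, at 0.47 (SE 0.09, edgeR adjusted p = 0.00119) and TOP1, a topoisomerase, at -0.24 (SE 0.06, edgeR adjusted p = 0.00616). Of 30 nucleotide supply genes 4 were lower (13.3%, near the share of all genes) and 1 higher, with SAMHD1, which degrades dNTPs, at -0.35 (SE 0.06, edgeR adjusted p = 0.000514) and CMPK1, a nucleotide kinase, at -0.30 (SE 0.08, edgeR adjusted p = 0.0165). Of 30 G1/S control genes 5 were lower (16.7%) and 0 higher by edgeR (1 higher at an unadjusted p under 0.05, 1 with DESeq2 and 0 with limma-voom), with E2F5 at -0.37 (SE 0.09, edgeR adjusted p = 0.00832) and SKP2, which marks cell cycle inhibitors for degradation, at -0.37 (SE 0.08, edgeR adjusted p = 0.00491). In the checkpoint list PKMYT1 was higher, at 0.42 (SE 0.10, edgeR adjusted p = 0.00646), and WEE1 lower, at -0.19 (SE 0.06, edgeR adjusted p = 0.0207); both encode kinases that restrain CDK1. Of 34 mitosis genes 8 were lower (23.5%) and 2 higher, with CENPE, a kinetochore motor, at -0.42 (SE 0.13, edgeR adjusted p = 0.0304) and UBE2C, a ubiquitin enzyme of mitotic exit, at 0.33 (SE 0.05, edgeR adjusted p = 0.000165); the list's median was -0.06.

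Between NC and R-47, mitosis genes and replication genes lay on opposite sides: 26 of 34 mitosis genes were lower (76.5%, against 39.6% of all genes) and 3 higher (8.82%, against 40.1%), with a median of -0.36, where the 44 replication genes had a median of 0.21. PLK1, a mitotic kinase, had -1.31 (SE 0.04, edgeR adjusted p = 2.07e-17) and CENPE -1.30 (SE 0.11, edgeR adjusted p = 3.02e-10). The other fork genes had 18 higher (54.5%) and 10 lower (30.3%) of 33, with CLSPN, a checkpoint mediator at the fork, at 1.56 (SE 0.06, edgeR adjusted p = 1.20e-16) and RNASEH2C at 1.55 (SE 0.05, edgeR adjusted p = 6.77e-17). The nucleotide supply list had 14 higher (46.7%) and 9 lower (30.0%), with TK2 at -1.69 (SE 0.09, edgeR adjusted p = 3.26e-13) and IMPDH2 at 1.58 (SE 0.04, edgeR adjusted p = 2.09e-19). The G1/S control list had 14 higher (46.7%) and 12 lower (40.0%), near the shares of all genes, with the CDK inhibitor CDKN1C at -5.83 (SE 0.29, edgeR adjusted p = 4.17e-14) and the phosphatase CDC25A at 1.66 (SE 0.05, edgeR adjusted p = 7.53e-18). CDKN1C averaged 0.087 CPM in NC and 5.18 CPM in R-47, so the size of its change rests on a level near the floor. The checkpoint list had 5 higher and 3 lower of 13, with CDC25B at -1.14 (SE 0.04, edgeR adjusted p = 7.02e-17) and ATRIP at 1.06 (SE 0.26, edgeR adjusted p = 0.000891). ATRIP was weakly expressed, with 0.95 CPM in NC and 0.46 CPM in R-47. The difference between the lists was not tested, and experiment and group cannot be told apart in it.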

How the data were processed

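The 20 libraries were grouped by their titles. HISAT2, HTSeq and fastp, with build hg38, are named in the submitters' processing notes (tool versions, annotation and strand setting not given in the sources used here). Whole-number counts per gene symbol, not normalised, were deposited by the authors together with FPKM. From the values, each FPKM is the count scaled by gene length and library total. No 2 libraries held identical counts.

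Each comparison used its 2 groups only: genes were kept by filterByExpr (minimum count 10, total 15), scaled by TMM and tested with edgeR's quasi-likelihood test, with Benjamini-Hochberg adjustment over all genes tested and a threshold of 0.05. SE is the size of the log2 fold change over the root of edgeR's F. CPM shown are scaled by TMM over all 20 libraries. Genes were named by a rule: 1 or more per role, the 6 called members of largest change in each comparison, and the 2 such genes of each other list. The members and lists were chosen with earlier results of these data known. Alternatives were other scalings (DESeq2 size factors, library size alone), other filters (none, minimum count 50), other tests (limma-voom, DESeq2), all 20 libraries fitted together, the replicate number as a block, offsets for length and GC content, and libraries left out. The fit was tested on simulated data. GC content was known for 88.1 to 90.6% of tested genes and all 44 members. Positions came from RefSeq GRCh38.p14. Without a stated strand setting, counts of overlapping genes are uncertain: 16 members are overlapped, 8 of them (ORC1, ORC3, ORC4, GINS2, RFC5, RPA3, TYMS and CCNE2) by a gene with at least 10% of their CPM. Tools were edgeR 4.0.16, DESeq2 1.42.0 and limma 3.58.1 in R 4.3.3, and numpy 2.4.6, pandas 2.3.3 and matplotlib 3.10.9 in Python 3.11.15.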

Additional observations from a re-analysis of the deposited data

Results flagged for a closer look

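In each group of 5 libraries, a library was singled out when its gap to the nearest other exceeded 0.71 of the group's range (Dixon's criterion). Of 84 sets of 5 values (21 genes in 4 groups), 12 met it, and chance gives about 1 in 20.

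NFS1 replicate 4 accounted for 5 of them. CDT1 was low there, at 52.2 CPM, against 72.7 to 81.0 CPM in the other NFS1 libraries. RRM1 had 304 CPM, against 236 to 255 CPM, and POLE2 had 20.03 CPM, against 14.8 to 16.0 CPM. MCM4 had 1261 CPM, against 1125 to 1154 CPM, and POLD3 had 80.4 CPM, against 67.4 to 70.5 CPM.

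In NC, PCNA had 249 CPM in replicate 3, against 264 to 268 CPM in the others. RRM2 had 165 CPM in replicate 5, against 183 to 187 CPM. GINS1 had 62.1 CPM in replicate 4, against 53.7 to 55.6 CPM. The NFS1 gene had 75.97 CPM in replicate 5, against 71.4 to 72.7 CPM. In R-47, PCNA had 262 CPM in replicate 3, against 276 to 282 CPM, and GMNN had 58.01 CPM in replicate 2, against 50.7 to 52.6 CPM. In R-37, GINS1 had 113 CPM in replicate 5, against 103 to 106 CPM.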

How the results depend on the processing

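In R-47 against R-37 (0 members higher, 3 lower), 1 was higher with no filter, with a minimum count of 50, with limma-voom and with all 20 libraries in 1 fit, and 2 with DESeq2. Library size alone gave 5 higher and 1 lower, and length and GC offsets 4 higher and 8 lower. Calls over all genes moved with these settings too, as given above. With 1 library left out, 0 to 4 were higher and 1 to 5 lower. In NFS1 against NC (1 higher, 15 lower), length and GC offsets gave 23 lower, with 3093 of 13287 genes lower over all genes tested. With 1 library left out, 1 to 2 were higher and 10 to 19 lower. Leaving out NFS1 replicates 2 and 3 together gave 5 lower (CCNE1, POLA2, CCNE2, RRM2 and POLD3), in a fit of fewer libraries. Over all genes, 1147 of 15357 were lower there. NFS1 replicates 2 and 3 held counts for 20480 and 20427 genes, against 19742 to 19879 in the other NFS1 libraries. Leaving out NC replicate 1 and NFS1 replicate 4 gave 3 higher and 19 lower, and 2955 and 2604 of all 15168 genes. In NC against R-47 (29 higher, 9 lower), library size alone gave 34 higher and 4 lower, and with 1 library left out 28 to 29 were higher and 8 to 10 lower. Among members called in either fit, the sign turned for PCNA (0.11), RPA1 (0.071) and E2F1 (0.078) in NC against R-47 with library size alone, for RPA1 (0.057) there with length and GC offsets, and for ORC5 (0.095) in R-47 against R-37 with those offsets. Of members called in neither fit, 21 turned sign in R-47 against R-37, 8 in NFS1 against NC and 1 (FEN1) in NC against R-47. Where no construction of a setting shows it, the cause was not tested. Libraries of different groups share a replicate number only: correlations of their deviations ran from -0.38 to 0.28, and not every library correlated best with its own number. With the number as a replicate block, R-47 against R-37 had 1 higher (CDT1) and 1 lower (CDC6), and NFS1 against NC had 8 lower, with GINS2, GINS4, MCM2, MCM6, MCM7, POLE2 and RFC2 not called. Depth sets little limit here, since the smallest member count was 407.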
